A study of Mus musculus with 23 samples.

Results

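The insulin-like growth factor (IGF) family was followed here through 10 of the 55487 genes counted in each library: the ligands Igf1 and Igf2, the receptors Igf1r, Igf2r and Insr, and the binding proteins Igfbp2, Igfbp3, Igfbp4, Igfbp5 and Igfbp7. The family was chosen by a measured value, the higher level of Igfbp3 in stretched than in control soma libraries, and its 10 genes were then found by Ensembl ID. All 10 genes had counts in each of the 12 soma libraries, whereas an axonal library held counts for 2 to 7 of the 10.

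RNA was measured in 23 libraries from hippocampal cultures of C57Bl/6 mice, prepared from pups of postnatal day 1 and grown in microfluidic chambers whose channels let axons pass into a second compartment. Cells were plated in 10% serum, which was exchanged after some hours for Neurobasal-A with B27, a supplement that contains insulin, and all cultures received magnetic nanoparticles at 5 µg/ml. Stretched cultures were held in a field gradient of 50 T/m from day 1 to day 6 in vitro, and in control cultures the gradient was null. The groups were control soma (n = 6), stretched soma (n = 6), control axon (n = 5) and stretched axon (n = 6). Soma libraries came from the whole culture on the cell-body side, other cell types included, and the labels describe the axonal material as purely axonal. The labels do not say whether replicates were separate cultures or pooled animals, so p-values measure only the spread between these libraries. The strain was the same in all groups, and no gene was targeted in any of them.

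IGF1, IGF2 and insulin are secreted peptides that activate the tyrosine kinase receptors IGF1R and INSR, which signal through insulin receptor substrates to the PI3K-AKT-mTOR and RAS-MAPK pathways. IGF2R is a mannose 6-phosphate receptor that carries lysosomal enzymes and removes IGF2 from the cell surface without such a kinase. IGF-binding proteins are secreted proteins that hold the ligands outside the cell, where proteases such as HTRA1 release them, and in hippocampal cultures IGF1 is known for promoting neuron survival and the outgrowth and specification of axons.

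Libraries held 16369153 to 43048953 counts. Levels are given in counts per 1000000 of a library's counts (CPM), and 3 counts, the floor used here, were worth 0.0697 to 0.183 CPM, a limit that covers counting error only. Axonal libraries had counts for 4263 to 10242 genes and soma libraries for 22452 to 24575. Control soma replicate 4 stood apart from its group. Along the leading principal component over the somata (53.3% of the variance) it lay at 19.2, among the stretched libraries at 9.58 to 26.2, whereas the other control libraries lay between -31.2 and -21.7. The soma libraries also fell into a set with 24.7 to 28.7 CPM of the Y-linked gene Eif2s3y (control 1, 2 and 3, stretched 1, 2 and 8) and a set with 5.39 to 13.2 CPM (control 4, 5 and 6, stretched 4, 5 and 6). These sets are defined by a level in the data and not by a label. The soma values of the members that differed are given below with and without replicate 4 and within each set. Because replicate 4 was set apart for lying among the stretched libraries, leaving it out favours larger differences. The values without it are a description and no check of the others.

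In the soma libraries the levels below are CPM scaled by the trimmed mean of M-values (TMM), and fold changes are stretched over control from the edgeR quasi-likelihood fit, with their standard errors (SE). Because this contrast chose the family, its values are a description and no test of a member is given. In this contrast 11.2% of the 15632 genes tested passed an adjusted p of 0.05 as higher in stretched somata and 13.9% as lower. Of the 9 family genes that passed the low-count filter, 3 were past that threshold as higher and 2 as lower, and nothing is read from that count. Fewer cells of a type and less RNA per cell cannot be told apart in bulk samples, which holds for every soma value below.

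Neither ligand was higher in stretched somata. Igf1, which glia and some interneurons make in the brain, measured 17.7, 19.1 and 28.5 CPM (lowest, median and highest) in control somata and 18.1, 20.2 and 24.8 CPM in stretched somata. The groups covered nearly the same range, and the means were 20.7 ± 4.02 and 20.5 ± 2.41 CPM (SD, n = 6 each). The log2 fold change was -0.01 (SE 0.13). Igf2, the fetal growth factor made in the brain mainly by meninges and choroid plexus, had between 1 and 23 counts in a control soma library and between 4 and 14 in a stretched one. Its means of 0.495 ± 0.394 and 0.290 ± 0.103 CPM (SD, n = 6 each) did not pass the low-count filter, and the 2 groups overlapped.

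The receptor for IGF1 and the receptor that clears IGF2 were both higher in stretched somata, and the insulin receptor was not. Igf1r, the kinase receptor for both IGFs, measured 18.1, 21.5 and 30.2 CPM (lowest, median and highest) in control somata and 27.2, 30.7 and 47.3 CPM in stretched somata. Its means were 22.3 ± 4.50 and 34.3 ± 7.77 CPM, a log2 fold change of 0.62 (SE 0.16). The only overlap between the groups came from control soma replicate 4, the highest control library at 30.2 CPM, and without it the other control libraries ended at 23.9 CPM and the log2 fold change was 0.71 (SE 0.15).

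Igf2r measured 11.2, 14.6 and 19.7 CPM in control somata and 18.2, 21.5 and 23.4 CPM in stretched somata. The means were 14.7 ± 3.15 and 21.3 ± 1.86 CPM, a log2 fold change of 0.54 (SE 0.14). Here too replicate 4 was the highest control library, and without it the controls ended at 16.05 CPM, below every stretched library, with a log2 fold change of 0.62 (SE 0.12). Insr, the insulin receptor, measured 11.6 to 18.0 CPM in control somata and 11.2 to 18.1 CPM in stretched somata. Its groups overlapped over nearly their whole range, with a log2 fold change of 0.02 (SE 0.15).

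The 5 binding proteins did not share a direction. Igfbp3, the main carrier of IGFs in blood and the gene that chose the family, measured 29.3, 42.4 and 64.9 CPM (lowest, median and highest) in control somata and 69.5, 82.7 and 92.9 CPM in stretched somata. Every stretched library lay above every control library, which was so for 1.31% of the genes tested. The means were 45.4 ± 14.4 and 81.3 ± 8.47 CPM, a log2 fold change of 0.84 (SE 0.17). Replicate 4 held the second highest control value, 60.1 CPM, and without it the log2 fold change was 0.92 (SE 0.17).

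Igfbp5, which binds to extracellular matrix and was the most abundant member in CPM, measured 161, 210.2 and 258 CPM in control somata and 187, 284 and 344 CPM in stretched somata. Its groups overlapped, with a log2 fold change of 0.35 (SE 0.17). The stretched libraries themselves fell apart by Eif2s3y set: the 3 of the higher set lay between 317 and 344 CPM and the 3 of the lower set between 187 and 251 CPM.

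Igfbp2, which astrocytes and developing brain secrete and which favours binding of IGF2, went the other way. It measured 179, 152, 151, 35.9, 171 and 179 CPM in control soma replicates 1 to 6, and 12.2, 34.1 and 61.6 CPM (lowest, median and highest) in stretched somata. Replicate 4 alone lay within the stretched range, and the other 5 controls all lay far above it. The means were 145 ± 54.8 and 36.0 ± 19.3 CPM, a log2 fold change of -2.01 (SE 0.42), and -2.22 (SE 0.35) without replicate 4.

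Igfbp7, a related secreted protein that binds insulin as well as IGFs and is known from vessels and fibroblasts, measured 2.04, 5.31 and 16.02 CPM in control somata and 0.481, 0.840 and 1.38 CPM in stretched somata. All 6 stretched libraries lay below all 6 control libraries, which was so for 2.73% of the genes tested. The log2 fold change was -3.01 (SE 0.53), and -3.22 (SE 0.48) without replicate 4. Igfbp7 overlaps exons of Polr2b, an RNA polymerase II subunit gene on the opposite strand that reached 188 CPM, and the strand setting of the counting is not given in the sources used here, so its level is uncertain. Igfbp4, which inhibits IGF action until it is cleaved, measured 18.1 to 28.2 CPM in control and 11.2 to 23.2 CPM in stretched somata, with overlapping groups and a log2 fold change of -0.34 (SE 0.16).

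**Figure D1:**
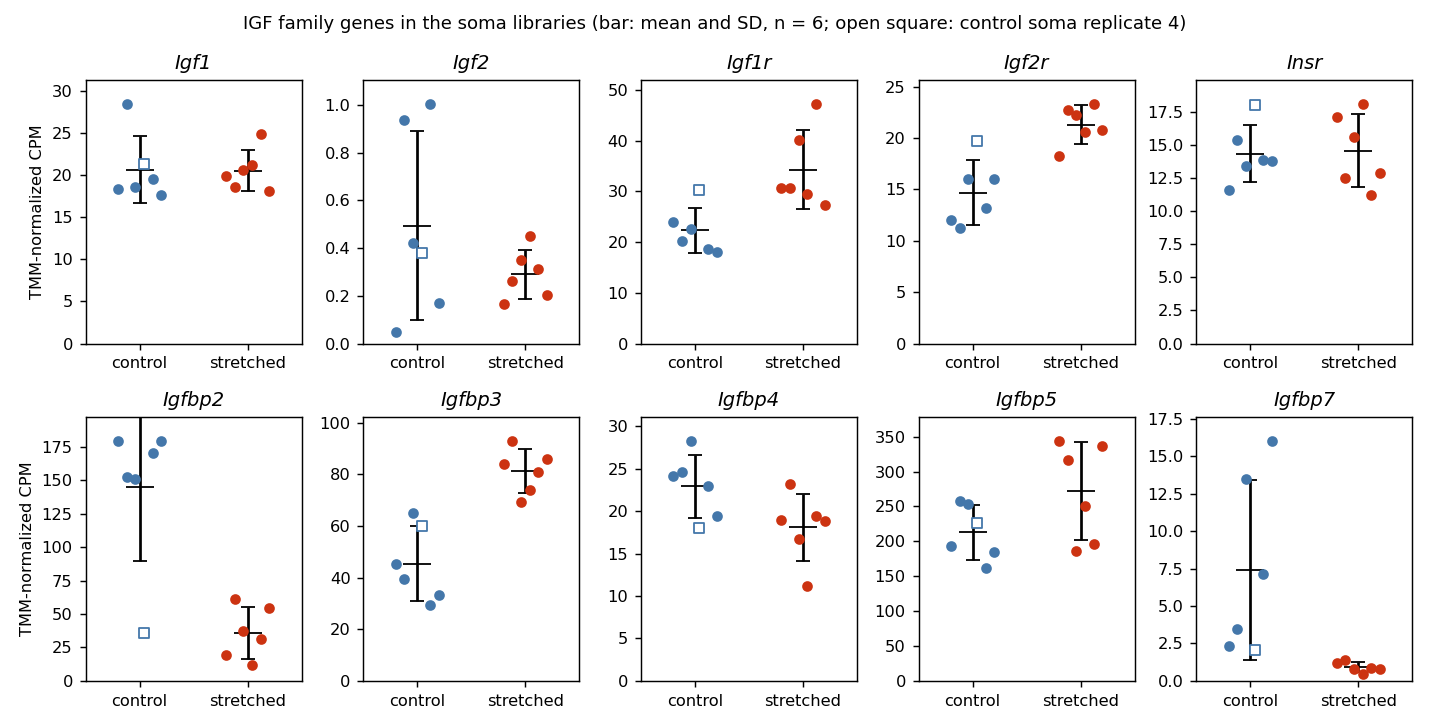
Level of each IGF family gene in the 12 soma libraries, in TMM-normalized CPM on linear axes that start at 0; each point is 1 library, bars give the mean and SD of 6 libraries, and the open square is control soma replicate 4. Igfbp3 lies between 69.5 and 92.9 CPM in stretched somata, above all control libraries, and Igfbp2 of replicate 4, at 35.9 CPM, lies among the stretched libraries.

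The soma values were also set against transcript length. Across 15619 genes the log2 fold change rose with the length of the longest annotated transcript (Spearman rho 0.457, a description over genes, which are not independent replicates). The 3123 genes with the shortest transcripts, 57 to 1870 bases, had a median log2 fold change of -0.33 and held Igfbp2 and Igfbp7. The 3124 with the longest, from 5208 bases, had a median of 0.24 and held Igf1, Igf1r, Igf2r, Insr and Igfbp5. Igfbp3, with a longest transcript of 2421 bases, sat among the 3125 next shortest, whose median was -0.17.

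With per-library offsets for length and GC content, an alternative chosen after seeing the data, the log2 fold change of Igfbp3 was 0.98 (SE 0.19), that of Igf1r 0.44 (SE 0.13) and that of Igf2r 0.37 (SE 0.11). Under the same offsets Igfbp2 stood at -1.56 (SE 0.37) and Igfbp7 at -2.65 (SE 0.51). Igf1 moved to -0.43 (SE 0.15) and Insr to -0.20 (SE 0.13), both below 0, and Igfbp5 moved from 0.35 to 0.15 (SE 0.17).

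Within the higher and the lower Eif2s3y set, with 3 control and 3 stretched libraries each, Igfbp3 had log2 fold changes of 0.86 and 0.87, Igf1r of 0.46 and 0.80, and Igf2r of 0.70 and 0.44. Igfbp2 stood at -1.76 and -2.27 and Igfbp7 at -2.50 and -3.56. These 5 genes kept their direction in both sets, as did Igfbp4 (-0.28 and -0.36) and Igfbp5 (0.56 and 0.15). Igf1, at -0.15 and 0.19, and Insr, at 0.13 and -0.02, did not. Both sets are parts of the libraries whose contrast chose the family, so a kept direction is no independent check.

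**Figure D2:**
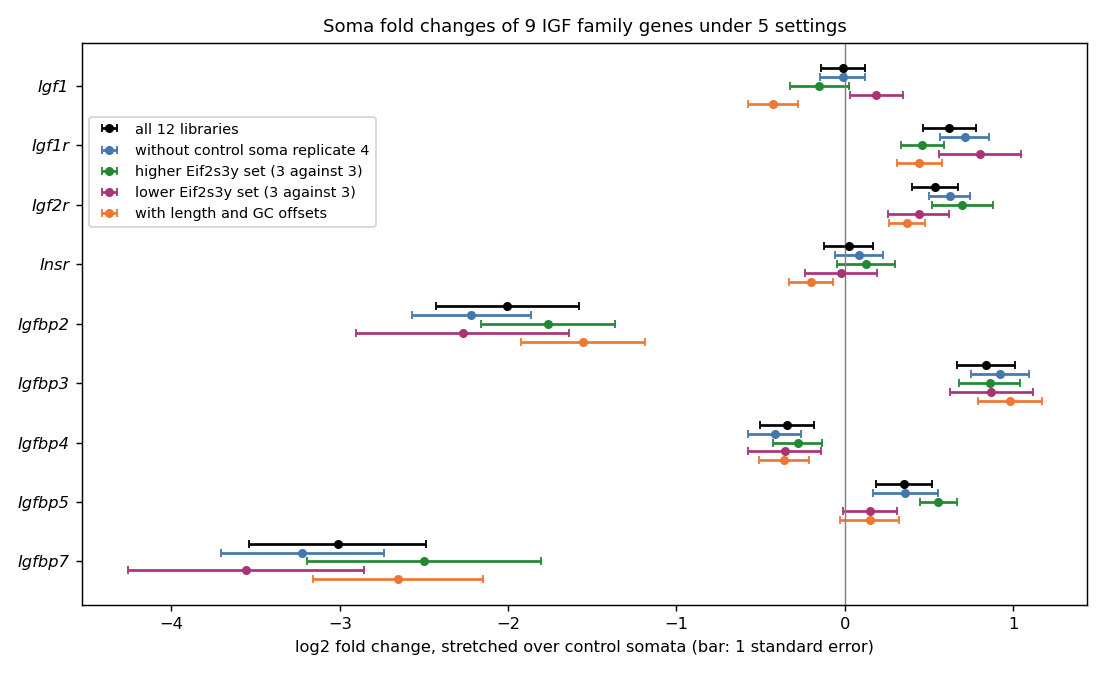
Log2 fold change (x axis, stretched over control somata, with 1 SE) of the 9 family genes that passed the low-count filter, under 5 settings given by colour. Igfbp3 lies between 0.84 and 0.98 in all 5 settings, and Igf1 moves from -0.01 with all libraries to -0.43 with the length and GC offsets.

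Per kilobase of exon, the order of the family in control somata was led by Igfbp2 at 78.4 ± 29.6 CPM per kilobase, then Igfbp5 at 35.4 ± 6.53 and Igfbp3 at 14.5 ± 4.61 (SD, n = 6). Igfbp7 (6.13), Igfbp4 (5.19), Igf1 (2.09), Igf2r (1.58), Igf1r (1.33), Insr (1.04) and Igf2 (0.0865) followed in mean CPM per kilobase. Igfbp2 and Igfbp5 overlapped in this order because of replicate 4. Igfbp3 also overlapped Igfbp7, Igfbp7 overlapped Igfbp4, and each of Igf1, Igf2r and Igf1r overlapped the next, whereas Insr lay apart from Igf2. In stretched somata Igfbp5 led at 45.3 ± 11.7 CPM per kilobase, followed by Igfbp3 at 26.0 ± 2.71 and Igfbp2 at 19.5 ± 10.46, of which Igfbp3 and Igfbp2 overlapped. Igfbp4 (4.09), Igf2r (2.29), Igf1 (2.07), Igf1r (2.04), Insr (1.06), Igfbp7 (0.761) and Igf2 (0.0507) came next. By mean level, the binding proteins other than Igfbp7 thus lay above the receptors and ligands in both groups of somata.

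Promoters are shown for Igfbp3, by which the family was chosen, Igf2r, a receptor with higher values in stretched somata, and Igfbp2, with lower ones, each from 250 bases before to 50 after the RefSeq start site (GRCm38.p6), 5′ to 3′ on the gene's own strand. They lie at chr11:7213874-7214173 (minus strand), chr17:12769657-12769956 (minus strand) and chr1:72824230-72824529 (plus strand, the first of the start sites listed for Igfbp2). Capitals mark the motifs searched on both strands: the GC box GGGCGG, the TATA box TATAAA, its common variant spelled TATATA, the palindromic E-box CACGTG, the site GTAAACA of FOXO factors, the site GGAATG of TEAD factors and the core of the cAMP response element, TGACGTCA.
Igfbp3: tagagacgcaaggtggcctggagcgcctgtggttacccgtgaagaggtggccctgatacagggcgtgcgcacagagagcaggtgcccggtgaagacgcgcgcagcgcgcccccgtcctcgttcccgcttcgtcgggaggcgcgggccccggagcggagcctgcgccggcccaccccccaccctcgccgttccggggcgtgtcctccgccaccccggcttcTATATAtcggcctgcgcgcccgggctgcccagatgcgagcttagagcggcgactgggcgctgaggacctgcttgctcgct
Igf2r: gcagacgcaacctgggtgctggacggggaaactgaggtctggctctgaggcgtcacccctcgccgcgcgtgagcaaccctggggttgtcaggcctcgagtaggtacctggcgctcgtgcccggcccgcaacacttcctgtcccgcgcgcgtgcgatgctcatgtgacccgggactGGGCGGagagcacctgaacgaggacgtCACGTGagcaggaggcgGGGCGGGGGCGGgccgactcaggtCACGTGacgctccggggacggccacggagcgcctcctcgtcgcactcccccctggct
Igfbp2: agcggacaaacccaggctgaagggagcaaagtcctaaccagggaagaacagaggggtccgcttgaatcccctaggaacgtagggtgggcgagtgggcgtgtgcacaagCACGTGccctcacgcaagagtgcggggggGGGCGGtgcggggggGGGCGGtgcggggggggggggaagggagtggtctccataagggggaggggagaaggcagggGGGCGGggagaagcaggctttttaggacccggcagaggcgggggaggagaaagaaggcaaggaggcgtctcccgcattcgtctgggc

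The 3 promoters differed in their boxes. Igfbp3 held a TATATA at -30 from the start site, a motif found in 5.67% of 32851 promoters of the same length, and none of the other 6 motifs. Igf2r held 3 GC boxes and a CACGTG at -48 and at -7. Igfbp2 held 3 GC boxes, at -113, -98 and -37, and a CACGTG at -142. A GC box was present in 35.7% and a CACGTG in 7.15% of all promoters, and the TATA box, the FOXO site, the TEAD site and the cAMP response core, which none of the 3 held, in 13.6%, 3.65%, 14.7% and 1.79%. Their GC content was 71.7% for Igfbp3, 70.7% for Igf2r and 67.0% for Igfbp2. RefSeq promoters were matched for 9 of the 10 members, Insr being the other. The gene bodies of the 3 genes, in GRCm38 with GENCODE vM21, span chr11:7206086-7213923, chr17:12682406-12769664 and chr1:72824503-72852474, and all counts are sums over their exons. A match to a motif is a description of these letters only.

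In the axonal libraries 2 binding proteins carried most of the family's counts. Igfbp2 was counted in 11 of 11 axonal libraries and Igfbp5 in 10 of 11. Each of the other 8 members was counted in 5 or fewer: Igf1r and Igfbp3 in 5, Igf1, Igf2r, Insr and Igfbp7 in 4, Igfbp4 in 3 and Igf2 in 0. Among the 3465 genes with a soma mean of 50 to 200 CPM, the range that holds Igfbp2 and Igfbp3, the median gene was counted in 7 axonal libraries and 8.43% in all 11. Among the 5054 genes between 10 and 50 CPM, the range of Igf1, Igf1r, Igf2r, Insr and Igfbp4, the median was 3 libraries. Among the 1010 genes at 200 CPM or more, the range of Igfbp5, the median was 10 libraries and 43.3% were counted in all 11. Igfbp2 was thus counted more widely than the median gene of its range, Igfbp5 as widely and Igfbp3 less widely. The 3 receptors, in 4 or 5 libraries, lay just above the median of theirs.

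When counts of a member other than Igfbp2 and Igfbp5 did appear in an axonal library, they were often high there and absent elsewhere. In TMM-normalized CPM over the axonal libraries, Igf1 was at 89.3 CPM in control axon replicate 2 and listed at 0 in the other 4 controls. In stretched axons it was at 480 CPM in replicate 2, 20.2 in replicate 8, 1.73 in replicate 6 and 0 in the other 3. The summed level of the 8 microglia markers in these axonal libraries was 890 CPM in control replicate 2, 44.2 in stretched replicate 2, 401 in stretched replicate 8 and 0 in stretched replicate 6, and it was at most 0.272 CPM in the other 7 axonal libraries. In control axons only 3 of the 8 markers had counts, with highest values of 131 (C1qb), 363 (Tmem119) and 397 CPM (Ptprc). Aif1, Cx3cr1, P2ry12, Csf1r and C1qa had none there. In stretched axons 7 of the 8 had counts in at least 1 library. Among the 4387 genes with a soma mean of 1 to 10 CPM, 34.2% had no count in any axonal library. Whether microglia were present in these libraries, and their part in the Igf1 values, was not tested.

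Igf1r was at 63.3 CPM in control axon replicate 7, 1.79 in replicate 5 and 0 in the other 3 controls. In stretched axons it was at 196 CPM in replicate 8, 4.02 in replicate 5, 0.128 in replicate 2 and 0 in the other 3. Insr was at 18.8 and 21.2 CPM in control axon replicates 1 and 5 and at 107 and 80.5 CPM in stretched axon replicates 5 and 8, and was listed at 0 in the other 7. Both kinase receptors were thus read from fewer than 6 of the 11 axonal libraries, with most of their counts in 1 or 2 of each group.

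Igf2r did not reach such levels: its highest axonal values were 2.26 CPM in control replicate 5 and 0.4659 CPM in stretched replicate 5. Igfbp3 was at 73.6 CPM in control replicate 5 and 5.63 in replicate 3, and at 193, 151 and 0.385 CPM in stretched replicates 8, 6 and 2. Igfbp4 exceeded 1 CPM only in control replicate 5 (78.3 CPM) and stretched replicate 6 (56.6 CPM). Igfbp7 had 1 count among all control axons and reached 80.7 and 21.5 CPM in stretched replicates 2 and 8.

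**Figure D3:**
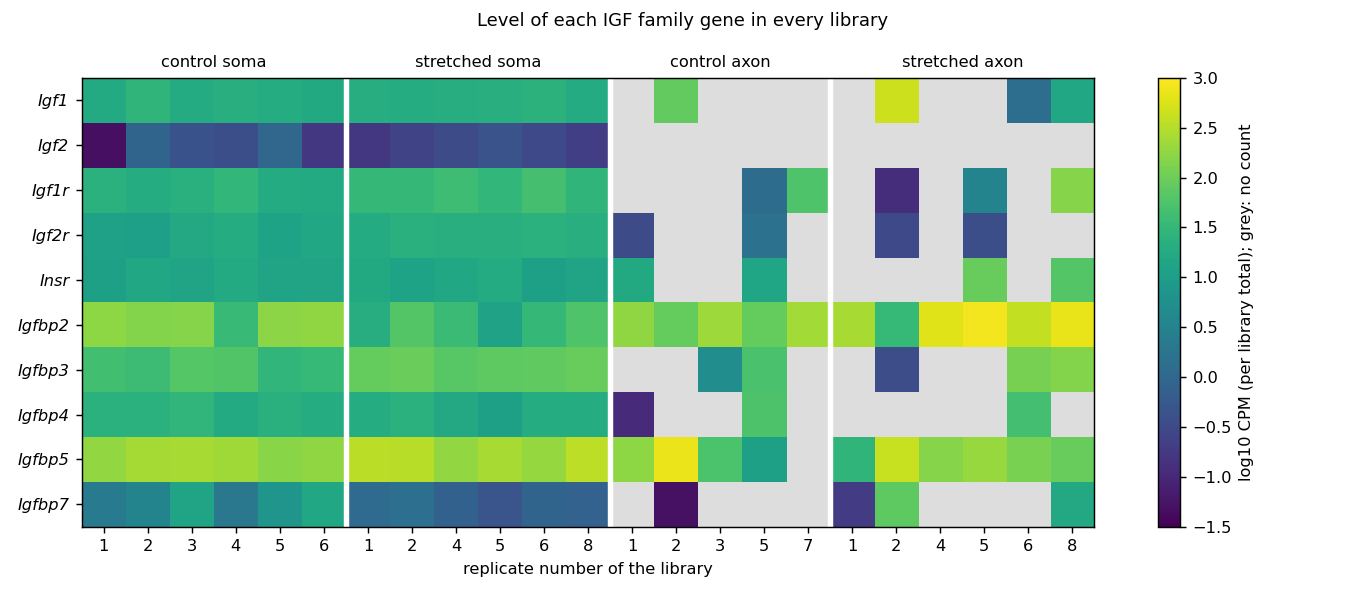
Level of each family gene (rows) in every library (columns, by group and replicate number), as log10 CPM per library total, with grey where there was no count. The soma columns are filled for all 10 genes, whereas in the axonal columns Igfbp2 is the only gene with counts in all 11.

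The question of a stretch response in axons could be tested for 2 members, since Igfbp2 and Igfbp5 were the only ones to pass the low-count filter there. Igfbp2 measured 197, 93.4, 244, 122 and 259 CPM in control axon replicates 1, 2, 3, 5 and 7, and 254, 34.5, 700.3, 989, 502 and 923 CPM in stretched axon replicates 1, 2, 4, 5, 6 and 8. Of the 6 stretched libraries, 4 lay above all controls, 1 lay within them and replicate 2 lay below them. The log2 fold change was 1.63 (SE 0.92, higher in 4 of 6 stretched libraries than in any control), with an edgeR adjusted p of 1.00 and 0.0965 unadjusted, so no difference was shown. Without each library in turn it ranged from 1.40 to 1.87.

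Igfbp5 measured 189, 796, 60.4, 16.1 and 0 CPM in control axons and 27.1, 170.1 and 435 CPM (lowest, median and highest) in stretched axons. The log2 fold change was -0.12 (SE 1.73, edgeR adjusted p 1.00), a 95% interval of -3.51 to 3.26, and its sign turned when control axon replicate 2 was left out (1.54). In this comparison edgeR called 0% of 4947 genes, with 46 at an unadjusted p under 0.05, while DESeq2 called 859 and limma 10. Set side by side, Igfbp2 stood at -2.01 in somata and 1.63 in axons; the difference between compartments was not tested, since the soma contrast chose the family.

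Axonal and soma libraries of the same condition were then compared, with both kinds scaled together by TMM, so levels differ slightly from those above. In control cultures 0.856% of 14728 genes passed as higher in axons and 34.4% as lower, and the median log2 fold change of all genes tested was -1.40. In stretched cultures 0.843% of 14466 genes passed as higher and 28.4% as lower, with a median of -1.13. When only library totals were used for scaling, these medians moved to -1.27 and -0.73. In each condition 9 members were tested. Those with counts in few axonal libraries passed the low-count filter through their soma counts, so a lower axonal level among them was favoured by the filter, and no count of calls over the members is read here.

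Igfbp2 was the member higher in axons, in stretched cultures. On the shared scale it measured 175, 25.7, 496, 720.4, 365 and 719 CPM in stretched axon replicates 1, 2, 4, 5, 6 and 8, and 14.7 to 74.97 CPM in stretched somata. All stretched axons but replicate 2 lay above all stretched somata. Axons averaged 417 ± 284 and somata 43.6 ± 23.7 CPM (SD, n = 6 each). This was a 9.57-fold difference, 3.26 on the log2 scale with an SE of 0.75 (edgeR adjusted p 0.00404, higher in 5 of 6 axonal libraries than in any soma library). It held without each library in turn (adjusted p up to 0.0118). The call was lost with limma (adjusted p 0.113) and in edgeR with replicate number as a block (adjusted p 0.150). The stretched soma libraries in this comparison are those in which Igfbp2 was low against control somata, so it shares them with the contrast that chose the family.

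In control cultures Igfbp2 measured 147, 69.4, 207, 90.3 and 212 CPM in axons and 38.9 to 192 CPM in somata on their shared scale. The groups overlapped, and the log2 fold change was -0.09 (SE 0.55, edgeR adjusted p 0.959), with a 95% interval of -1.17 to 0.99. Its sign turned with library totals (0.17), so it has no direction here. The means were 145 ± 65.3 CPM in axons (SD, n = 5) and 155 ± 58.4 CPM in somata (SD, n = 6). Astrocytes are a known source of Igfbp2, and the 8 astrocyte markers, summed, lay between 4789 and 25995 CPM in control axons, 4970 and 20650 in stretched axons, 5272 and 14357 in control somata and 5518 and 11683 in stretched somata. All 8 were counted in each of the 4 groups, but only Gfap, at 2867 CPM or more, and Aldoc, at 231 CPM or more, in every axonal library. Aqp4 had counts in 1 of 6 stretched axons, Aldh1l1 in 3 of 6, and Gja1 in 3 of 5 control axons. None of the 8 passed as different in any of the 4 comparisons. The part of astrocytes in the Igfbp2 values was not tested.

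Igf2r had counts in 4 of 11 axonal libraries and passed the low-count filter through its soma counts, so its tests in both conditions describe a gene kept by the compartment where it is high. In control cultures it measured 0.279, 0, 0, 1.67 and 0 CPM in axons and 11.9 to 21.3 CPM in somata. The log2 fold change was -5.30 (SE 1.71, edgeR adjusted p 0.0308). The call was lost without control axon replicate 1 and without any 1 of the 6 control soma libraries, with adjusted p between 0.0532 and 0.0569. It was also lost in edgeR with replicate number as a block (adjusted p 0.094). In stretched cultures Igf2r measured 0, 0.238, 0, 0.339, 0 and 0 CPM in axons and 22.0 to 28.0 CPM in somata. The log2 fold change there was -7.98 (SE 1.73, edgeR adjusted p 0.00266), and it held without each library in turn. With so few axonal counts that outcome was nearly fixed in advance, and nothing is read from it.

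Igfbp7 had a single count over the 5 control axon libraries and 1128 counts in the 6 control soma libraries, through which alone it passed the filter. Per count in the library the soma level was 1001 times the axonal one, with an exact 95% counting interval of 179 to 39564, and the adjusted p was 5.62e-05 with edgeR and 0.176 with limma, so the call depends on the tool. In stretched cultures the axonal values of 80.7 and 21.5 CPM noted above reversed the order of the means, 12.8 ± 24.1 CPM in axons against 1.11 ± 0.393 in somata, without a call (log2 fold change 3.52, SE 2.07, edgeR adjusted p 0.324). Igf2 was listed at 0 in all 11 axonal libraries and was not tested. Against the floor of 3 counts per library its axonal level was at least 3.17-fold lower than in control somata and at least 1.91-fold lower than in stretched somata. That floor covers counting error only. Of the 5872 genes with a soma mean of 0.1 to 1 CPM, the range of Igf2, 70.2% had no count in any axonal library. The absence of Igf2 there was thus usual for its soma level.

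**Figure D4:**
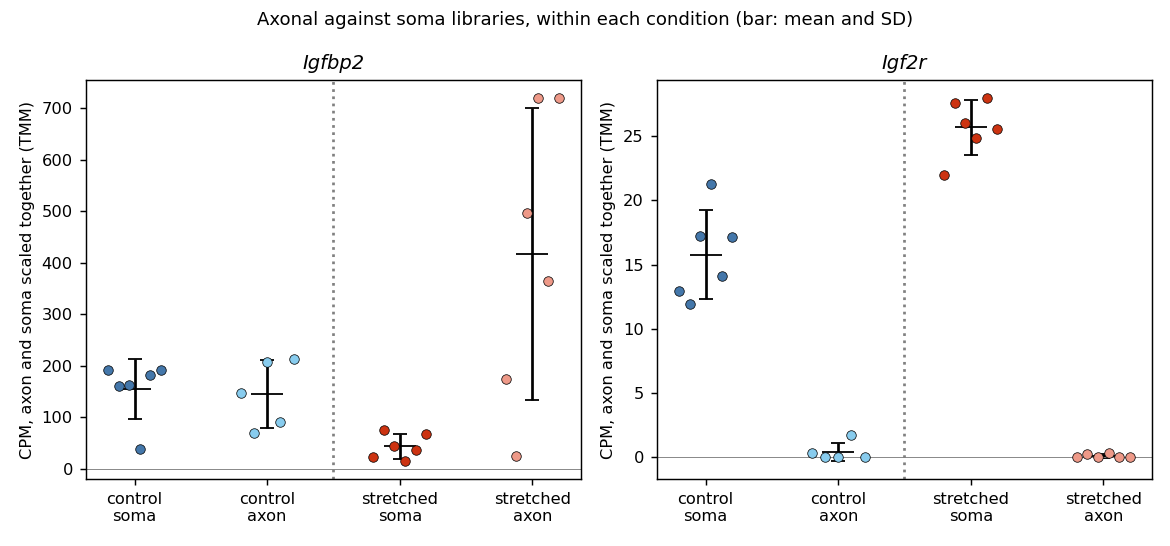
Igfbp2 (left) and Igf2r (right) in CPM, with axonal and soma libraries of each condition scaled together; points are libraries, bars give the mean and SD, and the dotted line parts control from stretched cultures. In stretched cultures 5 of 6 axonal libraries lie above all somata for Igfbp2, while for Igf2r no axonal library exceeds 1.67 CPM.

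The other members had no call with edgeR in either condition, and for most the answer hung on 1 axonal library. With limma voom and quality weights, Igf1, Igf1r, Insr, Igfbp3 and Igfbp4 all passed as lower in axons in both conditions, with adjusted p from 0.0021 (Igfbp4, control) to 0.0261 (Insr, stretched). These members too had counts in few axonal libraries, and the cause of the difference between the tools was not tested. Igf1r stood at -1.17 on the log2 scale (SE 1.99, edgeR adjusted p 0.832) in control cultures and -0.67 (SE 2.09, adjusted p 0.947) in stretched ones. Without control axon replicate 7 it stood at -6.13 (adjusted p 0.0317), and without stretched axon replicate 8 at -6.07 (adjusted p 0.0344), so that its call as lower turned on those libraries. Igf1 in control cultures passed as lower without control axon replicate 2, the only control axon with Igf1 counts (adjusted p 3.00e-05). Igfbp4 passed as lower without control axon replicate 5 (adjusted p 7.62e-05). In stretched cultures Igfbp4 did so without stretched axon replicate 6, the only stretched axon with its counts (adjusted p 1.79e-05). With those libraries left out, few or no axonal counts remained for Igf1r, Igf1 and Igfbp4, which passed the filter through their soma counts. These leave-one-out calls were thus nearly fixed in advance, and nothing is read from them. Igfbp5 stood at -0.52 (SE 1.41, adjusted p 0.907) in control and -1.20 (SE 0.55, adjusted p 0.156) in stretched cultures, where it passed as lower without stretched axon replicate 2 (-1.62, adjusted p 0.0198). Insr, at -1.37 (SE 1.81) and 0.42 (SE 2.10), and Igfbp3, at -2.03 (SE 2.06) and -1.18 (SE 2.04), had SEs of nearly 2 log2 units or more with edgeR. With limma, Insr stood at -6.27 (SE 1.86, adjusted p 0.0127) in control and -6.04 (SE 2.17) in stretched cultures, and Igfbp3 at -7.82 (SE 2.64, adjusted p 0.0223) and -7.24 (SE 2.17, adjusted p 0.0117).

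Around the family, genes that share, cleave or transmit its signals were read from lists, in somata first. They did not choose the family, but the lists were drawn up with earlier results of these data known. They are read in the same soma libraries, so their adjusted p-values are not independent tests. Of 10 other family genes 5 were tested, and 0 rose and 1 fell: Igfbpl1, a binding-protein-like gene of young neurons, went from 110 ± 35.2 to 40.9 ± 16.7 CPM (log2 fold change -1.42, SE 0.31, edgeR adjusted p 0.00941). Of 7 proteases and inhibitors of binding proteins tested, 0 rose and 2 fell. Htra1, a secreted protease that cleaves binding proteins, fell from 31.6 ± 13.3 to 11.7 ± 5.88 CPM (-1.43, SE 0.39, adjusted p 0.0194), and Stc1, a stanniocalcin that inhibits pappalysin, from 18.3 ± 4.23 to 12.5 ± 3.10 CPM (-0.55, SE 0.18, adjusted p 0.0373). Insulin itself was near absent, Ins1 having no count and Ins2 a mean of 0.0108 CPM in control somata.

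Of 30 adaptors and PI3K-AKT genes 7 rose and 4 fell, against 11.2% and 13.9% of all genes, with a list median of 0.10 against -0.03 over all genes. Inppl1, which encodes the lipid phosphatase SHIP2, rose from 8.73 ± 2.39 to 16.3 ± 5.67 CPM (0.90, SE 0.25, adjusted p 0.0209). Pik3cd, a catalytic PI3K subunit, rose from 15.7 ± 3.09 to 24.1 ± 2.11 CPM (0.62, SE 0.13, adjusted p 0.00746), and the docking protein gene Gab1 from 14.9 ± 3.73 to 22.6 ± 5.27 CPM (0.60, SE 0.18, adjusted p 0.0283). Other calls of this list, named after their values were seen, included Irs1 (0.59, SE 0.14), Pik3r3 (0.59, SE 0.19) and Pik3ca (0.42, SE 0.13) as higher, and Sh2b2 (-1.09, SE 0.31), Pik3cb (-0.90, SE 0.30), Irs2 (-0.60, SE 0.16) and the receptor phosphatase gene Ptpn1 (-0.44, SE 0.10) as lower. The 2 insulin receptor substrates, Irs1 and Irs2, thus moved in opposite directions, from 22.6 to 34.0 CPM and from 9.97 to 6.61 CPM. Of 16 mTOR and GSK3 genes 2 rose and 2 fell: the kinase Mtor rose (0.56, SE 0.19, adjusted p 0.0435), as did Tsc2, which holds mTOR back (0.49, SE 0.12, adjusted p 0.0134), and Akt1s1, an mTOR inhibitor that AKT phosphorylates, fell (-0.44, SE 0.11, adjusted p 0.0114), as did the translation repressor Eif4ebp2 (-0.27, SE 0.09, adjusted p 0.0478), named after its value was seen.

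Of 10 RAS-MAPK genes 2 rose and 2 fell. The kinase gene Map2k2 fell (-0.94, SE 0.27, adjusted p 0.0249), whereas Braf rose (0.70, SE 0.24, adjusted p 0.0439), as did Nras (0.56, SE 0.10, adjusted p 0.00432). Hras, named after its value was seen, was the other gene that fell (-0.63, SE 0.19, adjusted p 0.0271). Of 12 FOXO factors and targets 1 rose and 2 fell, with Foxo3, which AKT keeps out of the nucleus, higher (0.66, SE 0.17, adjusted p 0.0142) and Cdkn1b, a cell cycle inhibitor, lower (-0.53, SE 0.14, adjusted p 0.0158). The transcription repressor Bcl6, at 7.60 CPM in control somata and named after its value was seen, fell as well (-1.51, SE 0.28, adjusted p 0.00458). Of 6 genes of mannose 6-phosphate sorting, the route in which Igf2r acts, Gnptg fell (-0.39, SE 0.10, adjusted p 0.0164) and Sort1 rose (0.35, SE 0.12, adjusted p 0.0392). The called genes thus lay on both sides of 0 in the 5 signalling and sorting lists. Calls among the other family genes (1 of 5 tested) and the proteases (2 of 7) were all lower. Over all genes 13.9% passed as lower and 11.2% as higher, so no direction of these 2 lists is read from so few calls.

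Without control soma replicate 4 the calls were 12 higher and 4 lower for adaptors and PI3K-AKT, 5 and 2 for mTOR and GSK3, 4 and 2 for RAS-MAPK, and 1 and 3 for the proteases. With the length and GC offsets the adaptor and PI3K-AKT calls were 3 higher and 4 lower, and 0 remained for mannose 6-phosphate sorting. Over all genes the calls moved as well, from 1757 higher and 2172 lower in the reported fit. They were 2889 and 3183 without replicate 4, and 930 and 1549 with the offsets, so no shift is read as particular to a list. Every list had 0 calls in the lower Eif2s3y set alone, in which edgeR called no gene at all, and in a fit of all 4 groups.

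**Figure D5:**
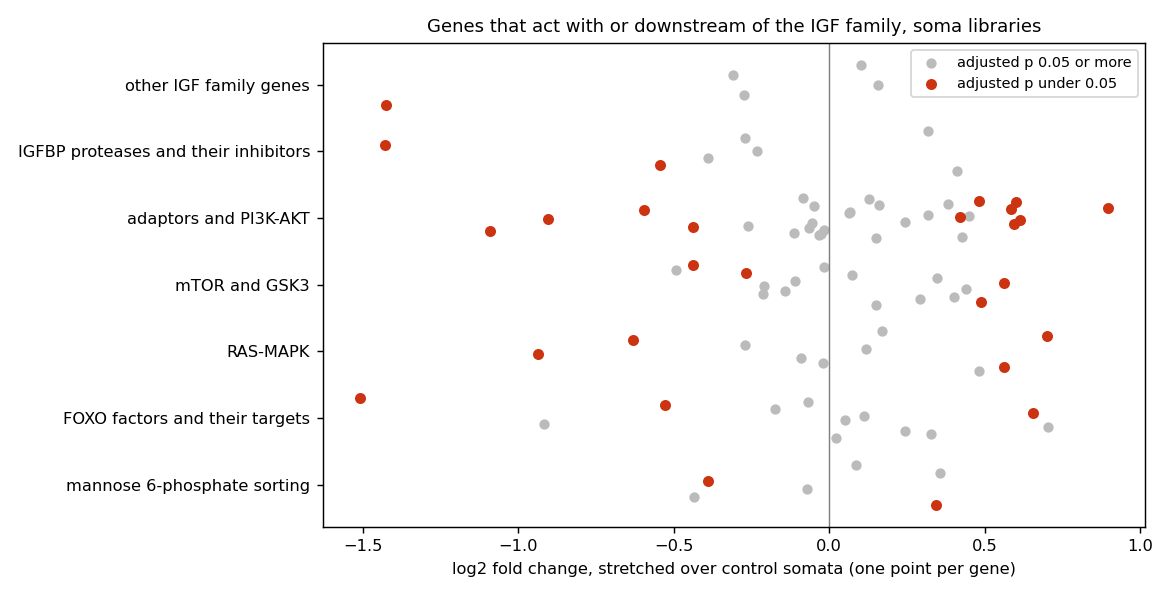
Log2 fold change (x axis, stretched over control somata) of each tested gene in 7 lists around the IGF family; each point is 1 gene, red where the edgeR adjusted p was under 0.05. Calls lie on both sides of 0 in 5 of the 7 lists, and the 3 calls among other family genes and proteases lie at -0.55 or lower.

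In axons 0 genes of any of the 7 lists were called for stretch. Between axons and somata of control cultures the calls were 9 lower of 30 adaptors and PI3K-AKT genes, 4 of 16 for mTOR and GSK3, 6 of 12 for FOXO, 3 of 6 for mannose 6-phosphate sorting and 0 of 10 for RAS-MAPK, with 0 higher in each, beside 34.4% lower of all genes tested. In stretched cultures, beside 28.4% lower of all genes, they were 4 of 30, 7 of 16, 4 of 12, 1 of 6 and 0 of 10 in the same order. Of the other IGF family genes 1 of 4 was lower in control and 1 of 5 in stretched cultures, and of the proteases and their inhibitors 2 of 7 and 0 of 7. Sh2b1, an adaptor of the insulin receptor, was at 120 ± 19.0 CPM in control somata and had no count in control axons. Against the floor of 3 counts this is at least 719.9-fold lower. Gnptab, the enzyme that makes the mannose 6-phosphate tag, was at least 113-fold lower by the same floor. These bounds cover counting error only, not the dropout of whole genes from sparse axonal libraries, and both genes passed the filter through their soma counts. No adaptor or PI3K-AKT gene met the rule for naming in stretched cultures. In stretched cultures 1 of the 16 mTOR and GSK3 genes was higher in axons. This gene, named after its value was seen, was Eif4ebp1, a translation repressor that mTOR phosphorylates, at 133 ± 69.3 CPM in axons and 33.2 ± 7.50 in somata (log2 fold change 2.01, SE 0.54, edgeR adjusted p 0.0117). Among the lower ones was Rps6kb2, an S6 kinase gene, which had no count in stretched axons. It was at least 135-fold lower there against the same floor, with the same limit. Foxo3, of the FOXO list, was also lower (-5.42, SE 1.49, edgeR adjusted p 0.0136).

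Cell-type markers were read beside the soma values. Of 8 astrocyte markers 0 differed between stretched and control somata. Of 8 microglia markers 2 fell, C1qa (-1.35, SE 0.22, edgeR adjusted p 0.00313) and C1qb (-0.80, SE 0.16, adjusted p 0.00616), and the markers summed to between 39.6 and 76.3 CPM in control somata and 29.8 and 37.6 in stretched somata. Of 8 fibroblast, meningeal and pericyte markers tested 1 rose and 1 fell, Rgs5 (0.38) and Dcn (-0.83), with sums of 274 to 451 and 345 to 436 CPM. Of 6 endothelial markers tested 0 differed, with sums of 7.04 to 19.1 and 8.88 to 18.4 CPM. Their part in the levels of Igf1, Igfbp2 and Igfbp7, which glia, meninges or vessels also make, was not tested. Of 8 neuron markers Syt1 rose (0.36), and Rbfox3 (-0.90) and Tubb3 (-0.27) fell, and their sums were 6014 to 7038 CPM in control and 6280 to 6805 CPM in stretched somata. In axonal libraries the neuron sums were 1533 to 5168 CPM in control and 1885 to 4071 CPM in stretched cultures, and the astrocyte sums given above show that the libraries labelled as purely axonal also held RNA of astrocyte markers.

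The genes most like a member across the 12 soma libraries were ranked among 9303 genes by the correlation of log2(CPM + 1), a description without a test, since libraries share their group, depth and set. Igfbp3 was followed most closely by Agrn (Pearson r 0.99, Spearman rho 0.98), a heparan sulfate proteoglycan gene, Shroom2 (0.98 and 0.99) and Hspa12a (0.98 and 0.94). Agrn was at 91.6 ± 25.4 CPM in control and 146 ± 15.01 CPM in stretched somata. Igf1r was followed by Mn1 (0.98 and 0.96), Wrb (0.97 and 0.94) and Ncam1, a neural adhesion molecule gene (0.97 and 0.92). For Igf1 the nearest were Riok2 (0.91 and 0.75), Mtpap (0.89 and 0.80) and Slc46a1 (0.89 and 0.51). Igf2, at few counts, had Atg4d nearest (0.87 and 0.75), then Taf1d (0.84 and 0.67) and Cnot6 (0.83 and 0.73).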

How the data were processed

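Per the submitters' processing notes, reads were handled with FastQC 0.11.9, MultiQC 1.12, fastp 0.20.1, STAR 2.7.08a and HTSeq 0.13.5 on mm10. The authors deposited whole-number counts per Ensembl gene ID, with rows of uncounted reads (14.2% to 24.4% of all) that were left out here. The annotation, strand setting and use of the molecular identifiers are not given in the sources used here, so counts may include amplified duplicates. Symbols were found for 55141 of the 55487 IDs.

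Each pair of groups was fitted alone on those counts with edgeR 4.0.16 in R 4.3.3 (filterByExpr, TMM, robust quasi-likelihood F test, Benjamini-Hochberg threshold 0.05); the SE is the log2 fold change divided by the square root of F. Lengths came from GENCODE vM21. The test was tried on simulated data. DESeq2 1.42.0, limma 3.58.1, other scalings, no filter, a replicate block, all 4 groups together, Eif2s3y sets, length and GC offsets (mgcv 1.9.3) and left-out libraries were alternatives. The members, lists and tests were chosen with earlier results of these data known. Named genes were all members, and from each list the 3 called genes with the largest change at a mean of 10 CPM or more; likeness used the same mean. Within each group no 2 libraries were duplicates, and libraries of different groups were not compared for this.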

Additional observations from a re-analysis of the deposited data

Results flagged for a closer look

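Of 38 groups of member values tested, 8 held a library farther from its group than Dixon's critical value allows. The usual rate of about 1 group in 20 assumes normally distributed values. It does not apply to axonal groups with counts in few libraries, so the 8 are not read against it. All values are TMM-normalized CPM. In somata it was Igfbp2 in control soma replicate 4, the lowest at 35.9 CPM with the next control at 151.

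The other 7 lay in axonal libraries, where most values of these genes were at or near 0. Igf1 was at 89.3 CPM in control axon replicate 2, with 0 in the other 4 control axons. Igf1r was at 63.3 CPM in control axon replicate 7 (next highest 1.79) and at 196 CPM in stretched axon replicate 8 (next highest 4.02). Control axon replicate 5 stood apart for Igf2r, at 2.26 CPM (next highest 0.374), and for Igfbp4, at 78.3 CPM (next highest 0.125). Igfbp4 was at 56.6 CPM in stretched axon replicate 6, with 0 in the other 5. Igfbp7 was at 0.0541 CPM, a single count, in control axon replicate 2, with 0 in the others.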

How the results depend on the processing

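The number of genes called for stretch in somata, 3929 in the reported fit, was 0 when all 4 groups shared 1 fit (262 without adjustment) and 0 in the lower Eif2s3y set alone (2739 unadjusted), 2479 with length and GC offsets and 2048 with these offsets and the replicate block. For stretch in axons, 0 in the reported fit, it was 859 with DESeq2, 10 with limma and 3870 with all 4 groups. For axon against soma in control cultures, 5196, it was 10714 with no filter, 10206 with DESeq2 and 9798 with limma, and in stretched cultures, 4234, it was 10931, 10064 and 10084. Without each library in turn these 4 counts ranged from 2666 to 6072 (highest without control soma replicate 4), stayed at 0, ranged from 4542 to 8151 (highest without control axon replicate 5) and from 4174 to 6499 (highest without stretched axon replicate 8). The cause of these shifts was not tested.

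Signs turned for values close to 0 or resting on few libraries. Igf1 in somata was 0.032 with library totals, 0.020 with no filter, 0.00037 with limma, 0.0054 with the replicate block, 0.11 with all 4 groups, 0.19 in the lower Eif2s3y set and -0.078 to 0.10 without single libraries. Insr in somata was -0.024 in the lower set, -0.20 with the offsets, -0.21 with offsets and block, -0.19 with offsets without control soma replicate 4 and -0.050 to 0.084 without single libraries. Igfbp5 for stretch in axons was 3.07 with limma and -0.54 to 1.54 without single libraries. Igfbp2 between control axons and somata was 0.030 with RLE size factors, 0.17 with library totals, 0.023 with DESeq2 and -0.30 to 0.079 without single libraries. Between stretched axons and somata, Igf1 was -5.86 with limma, -7.02 with the replicate block and -2.91 to 1.68 without single libraries, Insr was -6.04, -9.22 and -0.52 to 0.69, and Igfbp7 was -2.49 with limma and -3.69 with the block.

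Replicate numbers were not taken to pair libraries. Deviations of same-numbered soma libraries correlated at 0.0746 to 0.285 over 5 pairs, 4 of them over 0.1. Their mean was 0.211, against -0.0337 for differently numbered soma libraries, so same-numbered soma libraries shared some deviation. The mean was 0.0392 over 3 axonal pairs, 0.0558 over 4 control and 0.00497 over 6 stretched axon-soma pairs. The reported soma fit held neither replicate number nor Eif2s3y set. With the set as covariate 5304 genes were called in somata. With the replicate block 3227 genes were called in somata, 0 in axons, 5051 between control and 7687 between stretched axons and somata. Under it Igf2r in control cultures (adjusted p 0.094) and Igfbp2 in stretched cultures (adjusted p 0.150) lost their calls, while Igf1r in control cultures (-10.55, adjusted p 0.0425) and Igfbp4 in stretched cultures (-10.99, adjusted p 0.0062) gained one.

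Most members had counts in only some of the 11 axonal libraries, and their axonal calls differ between edgeR and limma.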
